A study of Mus musculus with 12 samples.

Results

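The angiopoietin and VEGF genes described here are 9 of the 56748 genes in a count table, picked by gene symbol. They are the TIE2 ligands Angpt1 and Angpt2, the angiopoietin-like ligand Angptl2, the receptors Tek (TIE2) and Tie1, and the ligands Vegfa, Vegfb, Vegfc and Vegfd. All 9 were found in the table, and 8 of them had enough reads to be among the 16465 genes tested; Tie1 did not. Poly(A) RNA was sequenced from 12 cultures of wild-type C3H10T1/2 cells (10T1/2; spelled CH310T1/2 in the sample records), a single mouse mesenchymal progenitor line. After a night in low serum the cells were kept in suspension without serum for 1 h and then plated in low serum for 18 h on gels of 12 kPa stiffness that carried a layer of type I collagen (0.05 mg/ml). The 4 col1 libraries had collagen alone, the 4 col1-ACLP libraries had collagen polymerized with 30 nM aortic carboxypeptidase-like protein (ACLP, a secreted collagen-binding protein), and the 4 col1-ACLP+SB libraries had that same matrix with 5 µM SB431542, an inhibitor of the TGFβ type I receptor kinase ALK5. No group had SB431542 on collagen alone, so what the inhibitor does to these genes without ACLP was not measured.

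Angiopoietin-1 and angiopoietin-2 are secreted ligands of the receptor tyrosine kinase TIE2, which with its relative TIE1 is known mainly from endothelial cells. Angiopoietin-1, made by mesenchymal and mural cells around vessels, activates TIE2 and is known for keeping vessels stable, while angiopoietin-2 can act as its antagonist. VEGF-A acts through VEGFR1 and VEGFR2 and drives vessel growth, VEGF-B binds VEGFR1, and VEGF-C and VEGF-D act through VEGFR3 in lymphatic growth. Mesenchymal cells are thus known as a source of angiopoietin-1, while TIE2 and TIE1 are known mainly from endothelial cells.

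The libraries held 29246154 to 52201922 counted reads. Replicate 2 of col1 stood apart from the other 11 libraries on the first principal component of log2 counts per 1e6 reads (CPM), with a score of -86.7 against -11.1 to 20.6 for the rest, and values without it are given where they matter. All 8 mesenchymal markers passed the filter on low counts. So did 6 of 8 mural markers, so passing it does not tell these labels apart. Of 10 endothelial markers 8 averaged under 1 CPM, Cldn5 and Sox17 were at 0 in every library, and Pecam1 and Cdh5 reached at most 0.298 and 0.309 CPM. The 2 markers above 1 CPM were Vwf, at a mean of 1.1 CPM over all libraries, and the transcription factor Erg. Erg had a mean of 2.93 CPM on col1, 11.6 with ACLP and 8.48 with ACLP and SB431542, and it carried the summed endothelial markers from 4.73-5.8 CPM on col1 to 12.4-15.3 with ACLP and 9.59-13.7 with ACLP and SB431542. The 8 mesenchymal markers summed to 24700-25600, 34600-42800 and 31500-37100 CPM in the same order of groups, mostly Col1a1 and Col1a2, which both rose. In the same list Pdgfra was called lower, from a mean of 420 CPM on col1 to 248 and 278 (edgeR adjusted p = 1.98e-10 and 3.32e-08), and Ly6a stood at 216, 218 and 184 CPM, lower with SB431542 than on col1 (adjusted p = 0.00725) and than on ACLP alone (adjusted p = 0.0243). Mural markers, of which Kcnj8 and Abcc9 were at 0, summed to 765-811, 891-1060 and 836-918 CPM, mostly Pdgfrb and Cspg4. Of these Cspg4 rose from a mean of 297 CPM on col1 to 510 and 426 (edgeR adjusted p = 1.03e-09 and 1.98e-06), while Pdgfrb fell from 483 to 437 and 429 (adjusted p = 0.024 and 0.0144). The lymphatic marker Prox1 and the macrophage marker Adgre1 were at 0 in all libraries, the lymphatic sum reached 0.261 CPM, and the macrophage sum, mostly Cd68, was 9.14-10.5, 5.32-8.85 and 7.31-10.7 CPM. Cd68 fell from a mean of 9.47 CPM on col1 to 6.73 with ACLP, without overlap (edgeR adjusted p = 0.0284). With ACLP and SB431542 it stood at 8.05 CPM and did not pass against col1 (adjusted p = 0.446). The part of these markers in the results that follow was not tested, and in bulk RNA fewer cells with a transcript and less transcript per cell cannot be told apart.

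Promoter sequences are shown for Vegfa and Vegfb, because this pair of VEGF ligands passed the test in opposite directions on ACLP. The RefSeq promoter table (build GRCm38.p6, 250 bases before to 50 bases after each start) matched 7 of the 9 genes; Angpt1 and Angpt2 had no entry. Each window was found once in GRCm39, the build of the table's coordinates, and is printed 5′ to 3′ on the gene's strand up to the base before the gene's 5′ end in the GENCODE annotation of GRCm39, which for both genes lies farther upstream than the start in the count table. The Vegfa window is chr17:46343310-46343553 on the minus strand, 244 bases long with 59.4% G and C. The Vegfb window is chr19:6965128-6965269 on the minus strand, 142 bases long with 74.6% G and C. For Vegfb the bases between its RefSeq start at 6965019 and its GENCODE 5′ end at 6965127 were thus cut away and not searched. For Vegfa these positions, 46343303 and 46343309, lie close together, so the windows do not cover the same stretch before the start. Capitals mark matches, on either strand, to any of 5 motifs: ACGTG and GCGTG (hypoxia response cores), CAGAC (SMAD core), GGAATG (TEAD core) and TGANTCA (AP-1).
Vegfa: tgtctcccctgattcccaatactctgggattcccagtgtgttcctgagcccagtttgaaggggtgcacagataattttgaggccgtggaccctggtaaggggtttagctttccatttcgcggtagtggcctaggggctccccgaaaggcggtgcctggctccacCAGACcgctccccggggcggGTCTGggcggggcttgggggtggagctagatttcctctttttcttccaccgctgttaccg
Vegfb: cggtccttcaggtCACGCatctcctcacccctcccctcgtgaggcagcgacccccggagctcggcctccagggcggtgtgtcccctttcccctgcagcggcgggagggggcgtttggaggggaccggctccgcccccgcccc
The Vegfa window held CAGAC at 86 bases before the RefSeq start and, on the other strand, at 66 bases before it. At least 1 CAGAC lay in 41.4% of all 32851 RefSeq windows cut to the same 244 bases. The Vegfb window held a single match, GCGTG on the other strand at 237 bases before its start, a motif found in 15.6% of all windows cut to 142 bases. No match overlapped another. The other motifs had no match in these windows, which says only that those letters are not there.

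Levels were compared between genes per kilobase of gene length and per 1e6 reads (RPKM), since the genes differ in length. On col1 the order was Angpt1 at 32.0 ± 2.5 RPKM (SD, n = 4), Vegfb at 22.5 ± 0.379, Vegfd at 22 ± 2.31, Angptl2 at 14.6 ± 0.893 and Vegfa at 12.7 ± 0.835. Vegfb and Vegfd, neighbours in that order, did not differ beyond their spread. Tek followed at 1.37 ± 0.309 RPKM, far under the ligands, and Angpt2, at 0.129 ± 0.111, and Vegfc, at 0.112 ± 0.0748, were near the limit of detection and overlapped. The cells thus carried transcripts of 5 ligands at moderate levels and little of either receptor. On col1-ACLP, Vegfd led at 25.2 RPKM, followed by Vegfb at 19.2, Angpt1 at 18.6, Vegfa at 18.3 and Angptl2 at 17.5, with Angpt1, Vegfb and Vegfa closer together than their spread. With SB431542 on ACLP, Vegfd stood at 23.3 RPKM, Angpt1 at 21.7, Vegfb at 20.7, Vegfa at 17.6 and Angptl2 at 15.3.

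**Figure D1:**
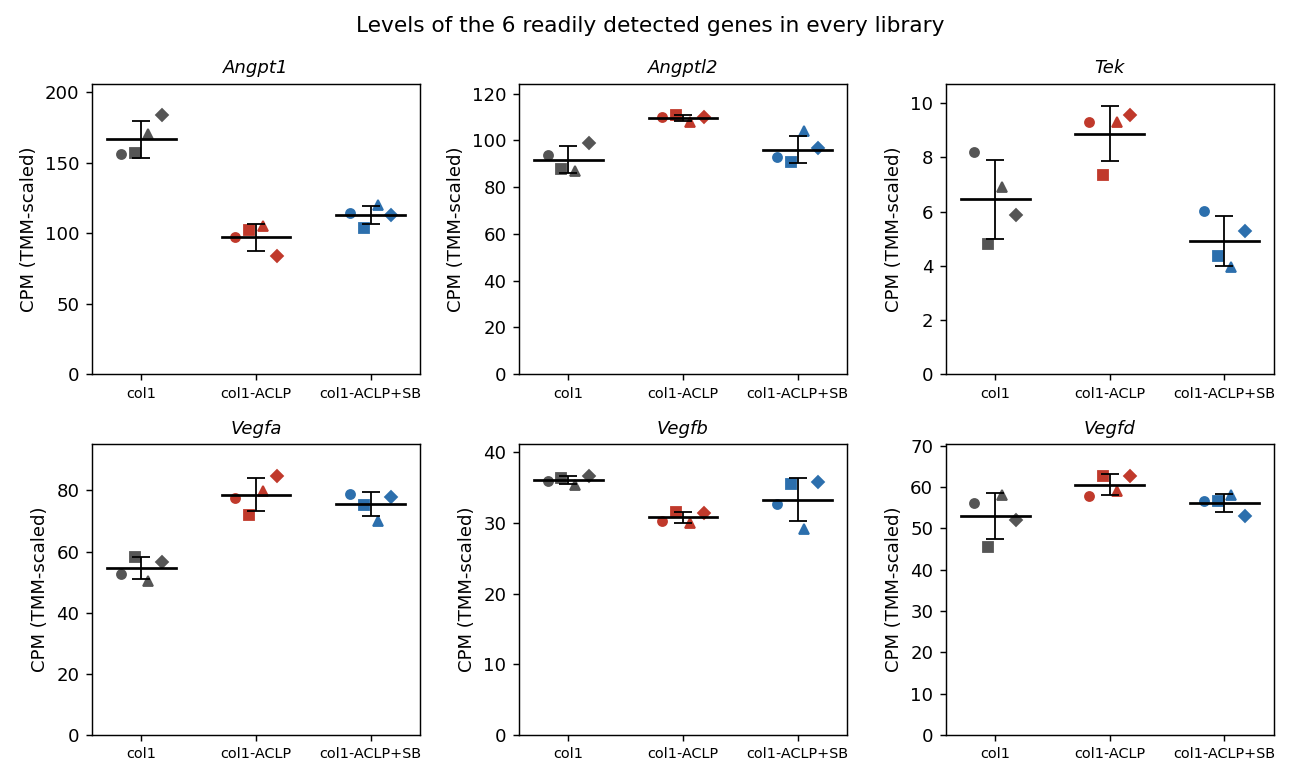
Level in CPM after TMM scaling (vertical axes, each from 0) of 6 genes in the 4 libraries of each group (horizontal axes), with the marker shape giving the replicate number and the black bars the mean and SD. Angpt1 is lower in all 8 ACLP libraries (83.5 to 120 CPM) than in the 4 col1 libraries (156 to 184 CPM), Vegfa is higher in all 8, and Tek is lower in the col1-ACLP+SB libraries than in the col1-ACLP libraries.

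Angpt1 (chr15:42288119-42540373, minus strand), the activating TIE2 ligand, fell by 41.8% on ACLP and fell by 32.3% with the inhibitor present. In the 4 col1 libraries it stood at 156, 157, 170 and 184 CPM, in the col1-ACLP libraries at 97.2, 102, 105 and 83.5 CPM, and in the col1-ACLP+SB libraries at 114, 104, 120 and 113 CPM. Neither ACLP group overlapped col1, while the ACLP groups overlapped each other at 104 to 105 CPM. The log2 fold change was -0.78 ± 0.067 (SE) for col1-ACLP against col1 (edgeR adjusted p = 2.31e-09) and -0.56 ± 0.067 for col1-ACLP+SB against col1 (adjusted p = 1.12e-06). The second lies just inside the fold threshold of 0.58 on the log2 scale that, with an adjusted p under 0.05, makes a gene called here, and without col1 replicate 2 it was -0.59. Between the ACLP groups the difference was 0.22 (95% confidence interval 0.08 to 0.36, adjusted p = 0.111), which did not pass the test, although DESeq2 gave an adjusted p of 0.046 and edgeR without a filter 0.0273. The lncRNA Gm17473 overlaps Angpt1 on the other strand at no more than 0.638 CPM.

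Angpt2 (chr8:18740279-18791578, minus strand), the context-dependent TIE2 ligand, was barely detected and varied more among replicates than between groups. Its reads numbered 31, 32, 2 and 8 on col1, 12, 8, 6 and 14 on col1-ACLP, and 7, 26, 53 and 14 on col1-ACLP+SB. All groups overlapped, and the log2 difference of col1-ACLP from col1 was -0.57 with a 95% confidence interval of -2.10 to 0.96 (edgeR adjusted p = 0.691), an interval that holds a fall of several fold. Without col1 replicate 2 that difference was -0.14 (adjusted p = 0.94). Angpt2 lies inside Mcph1, which is transcribed from the other strand at 11.1 to 20.6 CPM, and since the strand setting of the counting is not given in the sources used here, the few Angpt2 reads cannot be told apart from reads of Mcph1.

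Angptl2 (chr2:33106081-33137729, plus strand), a secreted angiopoietin-like protein that does not use TIE2 and is known to bind integrins, was modestly higher on ACLP. Its CPM was 93.8, 87.6, 87.0 and 98.9 on col1, 110, 111, 108 and 110 on col1-ACLP, and 92.8, 90.7, 104 and 96.7 with SB431542. All col1-ACLP libraries lay above all others, and their SD was 0.981 CPM (n = 4). The rise against col1 was 0.26 ± 0.056 on the log2 scale (edgeR adjusted p = 0.00157), below the fold threshold. With SB431542 the difference from col1 was 0.06 (adjusted p = 0.606), and the difference from col1-ACLP was -0.19 (adjusted p = 0.0899) although those groups did not overlap; DESeq2 put that adjusted p at 0.0266, and it was 0.0418 without col1-ACLP+SB replicate 3. The host gene Ralgps1, which contains Angptl2 on the other strand, ran at 4.37 to 8.72 CPM and passed the test in none of the 3 comparisons.

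Tek (chr4:94627526-94763213, plus strand), the gene of the receptor TIE2, was the only one of these genes whose level was called different between the ACLP groups. Its CPM was 8.20, 4.79, 6.92 and 5.88 on col1, 9.29, 7.35, 9.29 and 9.57 on col1-ACLP, and 6.01, 4.36, 3.95 and 5.29 on col1-ACLP+SB, from 130 to 314 reads a library. The col1-ACLP+SB libraries all lay under the col1-ACLP libraries, and col1 overlapped both. Against col1-ACLP, Tek fell by 44.8% with SB431542, a log2 fold change of -0.86 ± 0.18 (edgeR adjusted p = 0.0116). Against col1, the difference was 0.46 on ACLP (adjusted p = 0.0741) and -0.40 with SB431542 (adjusted p = 0.205), so neither ACLP group was shown to differ from collagen alone. Leaving out col1-ACLP replicate 4 took the adjusted p of the difference between the ACLP groups to 0.0522 with a log2 fold change of -0.82. Without col1 replicate 1 the difference of col1-ACLP from col1 was 0.60 (adjusted p = 0.0275), and without col1 replicate 2, the lowest of its group, it was 0.34 (adjusted p = 0.211). Of the 10 endothelial markers, Erg was called higher on ACLP than on col1 (log2 fold change 1.98, adjusted p = 6.67e-09) and, like Tek, had a lower mean with SB431542 than on ACLP alone, a log2 difference of -0.455 that did not pass (adjusted p = 0.216). Vwf, the gene of von Willebrand factor, averaged 0.921 CPM on col1, 1.47 on col1-ACLP and 0.903 with SB431542. The other tested markers ran differently, Egfl7 at 0.729, 0.372 and 0.989 CPM and Esam at 0.451, 0.247 and 0.18 CPM in the same order of groups. Vwf, Egfl7 and Esam passed in no comparison. The markers Pecam1, Cdh5, Cldn5 and Sox17 were at or near 0 in the same libraries. The part of the markers that moved in the Tek values was not tested.

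Tie1 (chr4:118328388-118347258, minus strand), the receptor that partners TIE2, had 2 reads in col1 replicate 1 and none in the other 11 libraries. It fell below the filter, and an exact two-sided permutation test of its mean CPM gave p = 1 in each comparison, the only value the test can give when at most 1 library holds reads.

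**Figure D2:**
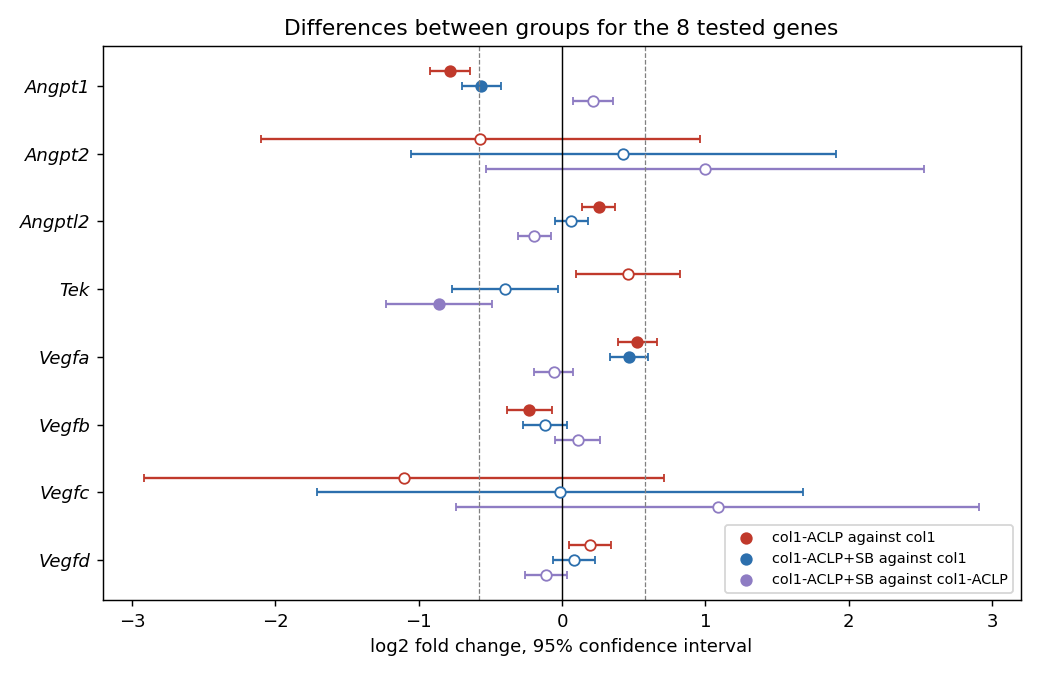
Log2 fold change (horizontal axis) of the 8 tested genes (vertical axis) in the 3 comparisons, with bars for the 95% confidence interval, filled circles for an adjusted p under 0.05, open circles for the rest and dashed lines at 0.58 in either direction. Angpt1 lies beyond the dashed line for col1-ACLP against col1 and Tek for col1-ACLP+SB against col1-ACLP, while the intervals of Angpt2 and Vegfc span more than 2 log2 units.

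Vegfa (chr17:46327919-46343295, minus strand), the principal VEGF ligand, was higher in both ACLP groups by similar amounts. It stood at 52.6, 58.2, 50.4 and 56.7 CPM on col1, at 77.4, 71.9, 79.9 and 84.9 CPM on col1-ACLP, and at 78.8, 75.1, 70 and 77.8 CPM on col1-ACLP+SB. All 8 ACLP libraries lay above all 4 col1 libraries, and the ACLP groups overlapped. The rise was 44% on ACLP (log2 fold change 0.53 ± 0.065, edgeR adjusted p = 1.07e-06) and 38.3% with SB431542 (0.47 ± 0.065, adjusted p = 1.24e-05), both short of the fold threshold. The difference between the ACLP groups was -0.06 with a 95% confidence interval of -0.19 to 0.08 (adjusted p = 0.807), which bounds any loss of Vegfa with the inhibitor at 0.19 log2 units. Counts per gene do not separate the splice forms of Vegfa.

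Vegfb (chr19:6959841-6965019, minus strand), the ligand of VEGFR1, moved the other way, and by little. Its CPM was 35.9, 36.4, 35.4 and 36.7 on col1, 30.3, 31.5, 30.0 and 31.4 on col1-ACLP, and 32.6, 35.5, 29.2 and 35.8 with SB431542. The col1 and col1-ACLP libraries did not overlap, and the col1-ACLP+SB libraries spread across both. Vegfb fell by 14.7% on ACLP (log2 fold change -0.23 ± 0.076, edgeR adjusted p = 0.0353). It was short of the fold threshold, and its pass on the adjusted p was fragile. The adjusted p rose to between 0.0548 and 0.0974 when any of the col1 or col1-ACLP libraries was left out. It was 0.0628 without col1 replicate 2 and 0.0741 without a filter. With SB431542 the difference from col1 was -0.12 (adjusted p = 0.417).

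Vegfd (chrX:163156374-163185646, plus strand), a VEGFR3 ligand, was the VEGF ligand with the highest RPKM on ACLP and did not pass the test in any comparison. It ran from 45.5 to 58.1 CPM on col1, 57.8 to 62.8 on col1-ACLP and 53.1 to 58.1 with SB431542, with overlap between col1 and each of the others. The log2 difference of col1-ACLP from col1 was 0.19 (edgeR adjusted p = 0.058). DESeq2 and limma-voom put that adjusted p at 0.0411 and 0.0438, and it was 0.0499 and 0.0279 without col1 replicates 1 and 3. Without col1 replicate 2, whose 45.5 CPM was the lowest value of all, the difference was 0.13 (adjusted p = 0.212).

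Vegfc (chr8:54530641-54640131, plus strand), the other VEGFR3 ligand, had 20, 6, 10 and 5 reads on col1, 4, 4, 6 and 2 on col1-ACLP, and 1, 15, 9 and 12 with SB431542. All groups overlapped, none of the 3 comparisons passed the test, and the interval of the difference between col1-ACLP and col1 ran from -2.91 to 0.71 on the log2 scale.

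**Figure D3:**
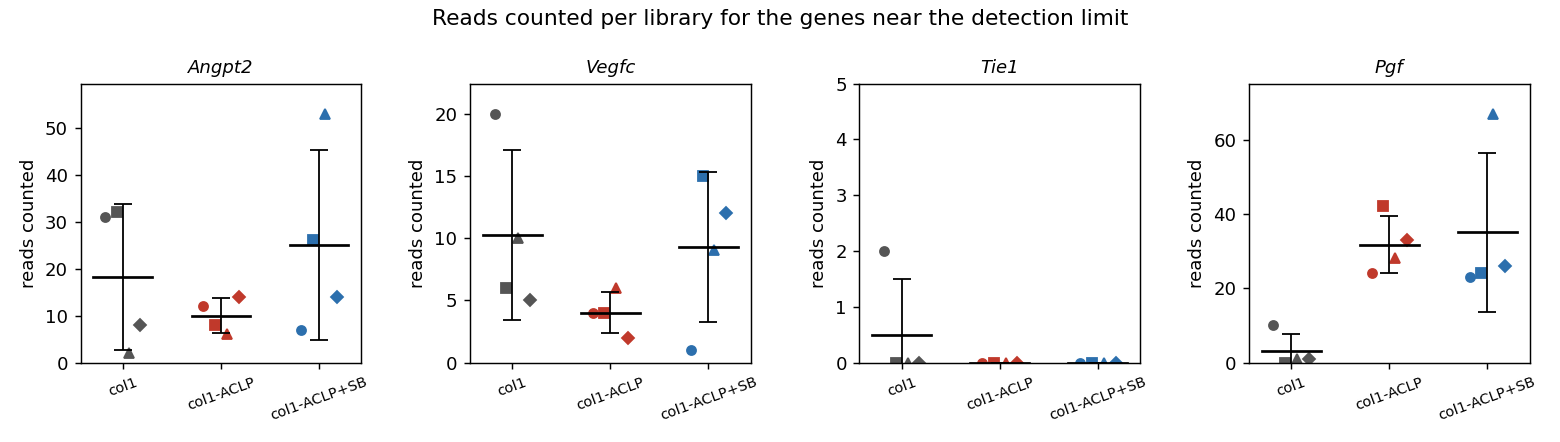
Reads counted per library (vertical axes, each from 0) for Angpt2, Vegfc, Tie1 and the related ligand gene Pgf in the 3 groups, with marker shapes for replicate numbers and black bars for the mean and SD. Angpt2 and Vegfc scatter over all groups, Tie1 has 2 reads in 1 library, and Pgf has 0 to 10 reads on col1 and 23 to 67 in the ACLP groups.

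The make-up of the VEGF ligand transcripts shifted towards Vegfa in both ACLP groups. Within the summed RPKM of Vegfa, Vegfb, Vegfc and Vegfd, Vegfa made up 22.2% ± 1.91 (SD, n = 4) on col1, 29.2% ± 1.59 on col1-ACLP and 28.5% ± 0.919 with SB431542. The share of Vegfb was 39.3% ± 1.4 on col1, 30.6% ± 0.674 on col1-ACLP and 33.5% ± 2.1 with SB431542. Vegfd kept the largest or second largest share throughout, at 38.3% ± 3.22, 40.1% ± 1.09 and 37.8% ± 2.45, and Vegfc stayed at no more than 0.367% in any library. Measured inside each library, the ratio of Vegfa to Vegfb in RPKM was 0.565 ± 0.0286 on col1, 0.956 ± 0.0701 on col1-ACLP and 0.853 ± 0.0572 with SB431542. The RPKM ratio of the ligand Angpt1 to its receptor gene Tek was 24.3 ± 5.73 on col1, 10 ± 1.93 on col1-ACLP and 21.4 ± 4.39 with SB431542, so the col1-ACLP libraries, at 7.9 to 12.5, lay under the 17.2 to 29.6 of the other 8. These shares and ratios were chosen after the values were seen and are given without a test.

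**Figure D4:**
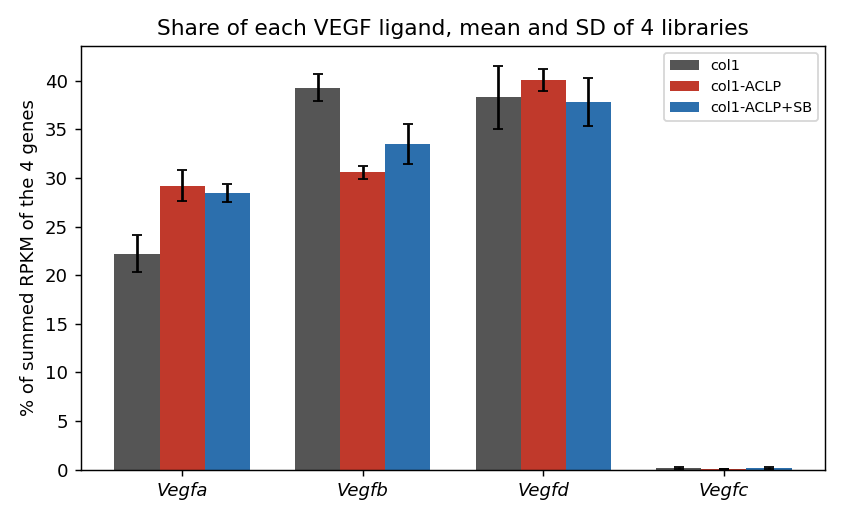
Share of each VEGF ligand gene in the summed RPKM of the 4 genes (vertical axis, percent, from 0), with bars for the mean and lines for the SD of 4 libraries in each group. Vegfa goes from 22.2% on col1 to 29.2% on col1-ACLP, Vegfb goes from 39.3% to 30.6%, and Vegfc is close to 0.

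Counted over the list, 1 of the 8 tested genes (Angpt1, lower) was called for col1-ACLP against col1, where 2.36% of all tested genes were called lower and 4.97% in either direction. With the adjusted p alone the count was 4 of 8, with Angptl2 and Vegfa higher and Angpt1 and Vegfb lower, against a background of 17.9%. Those 4 were also the genes whose groups did not overlap, as was true of 21.2% of all tested genes. For col1-ACLP+SB against col1 none was called where 2.28% of all genes were, and by the adjusted p alone 2 passed, Vegfa higher and Angpt1 lower, against 9.13%. Both had groups that did not overlap, against 13% of all genes. For col1-ACLP+SB against col1-ACLP, Tek was 1 of 7 genes called lower in the whole table (0.0425%, and 0.128% in either direction), with 14 called higher. That balance was not steady: scaling by library size alone gave 5 lower and 18 higher, leaving out col1-ACLP+SB replicate 4 gave 7 lower and 4 higher, and the adjusted p alone gave 149 lower and 94 higher. By the adjusted p alone Tek was again the only one of the 8, against 1.48% of all genes. Tek and Angptl2 had groups that did not overlap in that comparison, against 8.17% of all genes. The median log2 fold change of the 8 genes was -0.02, 0.02 and 0.03 in the 3 comparisons, beside -0.01, 0.01 and 0.01 over all tested genes. The comparisons share their groups, so they are not independent of each other.

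The wider pathway was followed in a list of 48 further genes, of which 38 were tested. Against col1, 11 were higher and 11 lower on ACLP by the adjusted p, where 17.9% of all tested genes passed, and 8 higher and 6 lower were called, where 4.97% of all were. With SB431542 10 were higher and 8 lower by the adjusted p, against 9.13% of all genes, and 6 higher and 3 lower were called, against 2.28%. Between the ACLP groups 1 was higher and 3 were lower by the adjusted p, against 1.48% of all genes, and none was called, against 0.128%. The list was written with results of these data known.

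**Figure D5:**
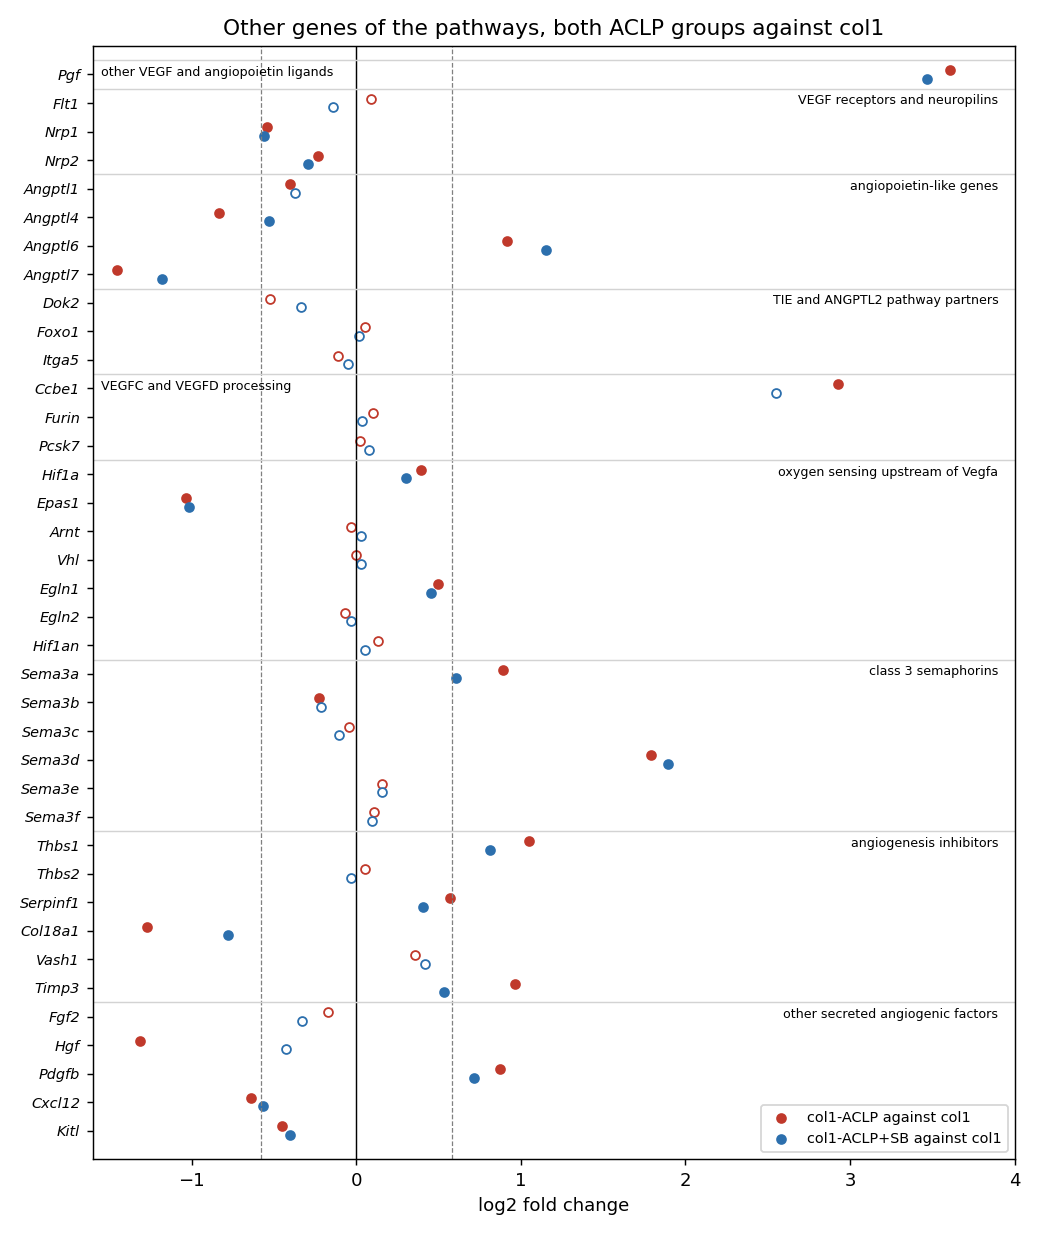
Log2 fold change (horizontal axis) of the 38 tested genes of the wider pathway list (vertical axis, by group) for col1-ACLP and col1-ACLP+SB against col1, with filled circles for an adjusted p under 0.05, open circles for the rest and dashed lines at 0.58. Pgf lies farthest to the right at 3.61 and 3.47, and Angptl7, Hgf, Col18a1 and Epas1 farthest to the left on ACLP.

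Among ligands, Pgf, which encodes placental growth factor, a further VEGFR1 ligand, was detected mainly on ACLP. It had 10, 0, 1 and 1 reads on col1, 24, 42, 28 and 33 on col1-ACLP, and 23, 24, 67 and 26 with SB431542. The ACLP groups did not overlap col1, and the log2 fold changes were 3.61 ± 0.75 (edgeR adjusted p = 0.000985) and 3.47 ± 0.75 (adjusted p = 0.00263). These sizes rest on col1 replicate 1, which held 10 of the 12 col1 reads, and without it they were 5.57 and 5.43. Angpt4, a further TIE2 ligand, was below the filter at no more than 0.772 CPM.

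Of the VEGF receptor and neuropilin genes, only Flt1 and the co-receptors Nrp1 and Nrp2 passed the filter. Flt1, the gene of VEGFR1, averaged 32.0 CPM over the 12 libraries and passed the test in no comparison. Kdr, the gene of VEGFR2, had 1 read in all 12 libraries together, and Flt4, the gene of VEGFR3, had 36, of which 31 lay in col1 replicate 4. Nrp1, which binds VEGF-A and class 3 semaphorins and had the highest level of this group, ran from 248 to 305 CPM on col1, 180 to 198 on col1-ACLP and 158 to 211 with SB431542. Neither ACLP group overlapped col1, and Nrp1 fell by 31.3% on ACLP and fell by 32.2% with SB431542 (edgeR adjusted p = 1.89e-06 and 2.2e-06). Nrp2, the co-receptor for VEGF-C, fell by 14.8% and fell by 18.3% (adjusted p = 0.00221 and 0.000347).

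The 6 further angiopoietin-like genes, of which 4 were tested, did not move as one. Angptl4, a lipoprotein lipase inhibitor and the one with the highest level among these 6, ran from 46.8 to 59.8 CPM on col1, 26.2 to 31.3 on col1-ACLP and 33.3 to 39.6 with SB431542, with no overlap among the 3 groups. It fell by 43.8% on ACLP (edgeR adjusted p = 4.84e-08) and by 30.8% with SB431542 (adjusted p = 7.06e-05), and the difference between the ACLP groups was 0.30 on the log2 scale (adjusted p = 0.0821), although DESeq2 gave an adjusted p of 0.0317 and edgeR without a filter 0.0251. Angptl6 rose by 0.92 and 1.15 on the log2 scale (adjusted p = 0.0126 and 0.00333), from a level of 1.6 CPM, and the first was lost without col1-ACLP replicate 2 (adjusted p = 0.0704). Angptl7 fell by 1.45 and 1.18 (adjusted p = 0.00309 and 0.0251) from 4.37 CPM, but it lies opposite Mtor, which ran at 61.9 to 76.1 CPM, and reads of either could not be told apart without strand. Its fall with SB431542 was lost without col1 replicate 3 or 4 or col1-ACLP+SB replicate 1 or 2 (adjusted p = 0.0567 to 0.0951). Angptl1 fell by 24.3% on ACLP (adjusted p = 0.0385) and did not pass with SB431542 (adjusted p = 0.0888). The first was lost without col1 replicate 1, 2 or 4 or col1-ACLP replicate 2, 3 or 4 (adjusted p = 0.0529 to 0.166), and the second passed with limma-voom (adjusted p = 0.0467), without a filter (adjusted p = 0.0301) and without col1-ACLP+SB replicate 4 (adjusted p = 0.0332).

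Partners and processing factors of these ligands mostly did not pass the test. None of the 3 tested TIE and ANGPTL2 partners passed the test in any comparison, among them Itga5, an integrin subunit at 277 CPM on col1 and 256 on col1-ACLP, and Foxo1, a transcription factor downstream of TIE2. Ptprb, the phosphatase that restrains TIE2, had 28 reads in all libraries together, and Pirb, a receptor for ANGPTL2, had 0. For VEGF-C and VEGF-D processing, the protease gene Furin, the highest in its group, stood at 123 CPM on col1 and 132 on col1-ACLP and did not pass, while Adamts3 had no reads. Ccbe1, the cofactor of VEGF-C cleavage, had 4, 0, 0 and 7 reads on col1 and 7, 19, 30 and 13 on col1-ACLP. Its log2 fold change of 2.92 (edgeR adjusted p = 0.0288) did not pass in 6 of 18 alternative settings, and it was lost without col1 replicate 2 or 3 or col1-ACLP replicate 2, 3 or 4 (adjusted p = 0.0523 to 0.134), while without col1 replicate 4 it was 3.81. With SB431542 the reads of Ccbe1 numbered 7, 7, 40 and 14, and the difference from col1 of 2.55 did not pass (adjusted p = 0.0924).

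In the oxygen-sensing group, which acts upstream of Vegfa, the hypoxia-inducible factor genes moved in opposite directions. Hif1a, the highest of the group, ran from 178 to 195 CPM on col1, 236 to 254 on col1-ACLP and 218 to 250 with SB431542. It rose by 31.1% and 23.6% (edgeR adjusted p = 2.06e-06 and 0.000127). Epas1, the gene of HIF-2α, ran from 28 to 32.8 CPM on col1, 14.1 to 16.4 on col1-ACLP and 14.9 to 16.1 with SB431542, a fall by 1.03 and 1.01 on the log2 scale (adjusted p = 4.4e-09 and 1.3e-08). The prolyl hydroxylase gene Egln1 rose by 41.3% and 37.1% (adjusted p = 7.5e-07 and 5.92e-06). Arnt, Vhl, Egln2 and Hif1an did not pass in any comparison. Levels of mRNA do not show the amount of HIF protein, which is set largely by its breakdown.

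Class 3 semaphorins, several of which bind neuropilins as VEGF-A does, included Sema3a and Sema3d, which rose, and Sema3b, which fell on ACLP. Sema3a ran from 31.6 to 34.7 CPM on col1, 58.5 to 62.1 on col1-ACLP and 47.2 to 52.4 with SB431542, with no overlap among groups. It rose by 0.89 and 0.61 on the log2 scale (edgeR adjusted p = 1.02e-10 and 2.02e-07) and was lower by 0.29 with the inhibitor than without it (adjusted p = 0.0211). That last difference was lost without col1-ACLP replicate 1, 2 or 4 or col1-ACLP+SB replicate 1 or 2 (adjusted p = 0.063 to 0.0769). Sema3d rose by 1.79 and 1.89 (adjusted p = 0.0131 and 0.0155) from 0.455 CPM, and the second was lost without col1 replicate 3 (adjusted p = 0.0539). Without col1 replicate 4, which held 42 of its reads against 4 to 19 in the other col1 libraries, they were 2.49 and 2.59. Its col1 libraries reached 0.976 CPM and overlapped col1-ACLP, which began at 0.794 CPM, but not col1-ACLP+SB. Sema3b fell by 14.6% on ACLP (adjusted p = 0.0218), with no overlap between the groups, and the difference from col1 with SB431542 was -0.21 on the log2 scale (adjusted p = 0.0561). The first was lost without col1 replicate 1 or 2 or col1-ACLP replicate 2, 3 or 4 (adjusted p = 0.0548 to 0.0777). The second passed with DESeq2, limma-voom and library size alone (adjusted p = 0.0281, 0.0269 and 0.0304) and without col1-ACLP+SB replicate 2 (adjusted p = 0.0129). Sema3c, by far the highest at 579 CPM on col1 and 562 on col1-ACLP, did not pass.

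Inhibitors of angiogenesis moved both ways. Thbs1, which encodes thrombospondin-1 and had the highest level, rose by 1.05 and 0.81 on the log2 scale (edgeR adjusted p = 1.91e-13 and 4.62e-11), from 1020 CPM on col1 to 2120 on col1-ACLP and 1800 with SB431542. It was lower by 0.24 with SB431542 than on ACLP alone (adjusted p = 0.0211), which was lost without col1-ACLP replicate 3 or 4 or col1-ACLP+SB replicate 1, 2 or 4 (adjusted p = 0.0606 to 0.091). Timp3, a matrix metalloproteinase inhibitor that also blocks VEGFR2, rose by 0.96 and 0.53 (adjusted p = 8.4e-13 and 7.34e-08) and was lower by 0.43 with SB431542 than on ACLP alone (adjusted p = 7.13e-05). Col18a1, whose product is the source of endostatin, fell by 1.27 and 0.78 (adjusted p = 6.45e-13 and 9.14e-09) and was 0.50 higher with the inhibitor than without it (adjusted p = 0.00029). Slc19a1 overlaps Col18a1 on the other strand at 34.3 to 41.8 CPM, and Col18a1 ran from 66.7 to 191 CPM, so part of its count may be shared. Serpinf1, the gene of PEDF, rose by 0.57 and 0.41 (adjusted p = 1.14e-08 and 5.45e-06), both short of the fold threshold.

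All 5 other secreted angiogenic factors were tested. On ACLP 1 was called higher and 2 lower than on col1, where 4.97% of all tested genes were called. With SB431542 only Pdgfb was called against col1, where 2.28% of all were. Pdgfb, the ligand that recruits mural cells, ran from 24.5 to 31.6 CPM on col1, 46.2 to 59.2 on col1-ACLP and 42.2 to 50.2 with SB431542, a rise by 0.88 and 0.72 on the log2 scale (edgeR adjusted p = 4.59e-08 and 2.28e-06). Hgf, the ligand of MET, fell by 1.31 on ACLP (adjusted p = 0.00342) from 3.73 to 1.5 CPM, and stood at 2.75 CPM with SB431542, where it differed neither from col1 (adjusted p = 0.486) nor from col1-ACLP (adjusted p = 0.188) by this test. Cxcl12, a chemokine and the highest of the group, fell by 0.64 and 0.57 (adjusted p = 2.63e-10 and 6.07e-09), from 405 CPM on col1 to 260 and 273. Kitl, the ligand of KIT, fell by 26.9% on ACLP and fell by 24.4% with SB431542 (adjusted p = 3e-05 and 0.000233), and Fgf2 did not pass.

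Patterns most like those of the called genes were sought among all tested genes, as the root mean square difference of log2 CPM, centred per gene, over the 12 libraries. For Angpt1 the closest were Glrx at 0.0699, Pdgfra at 0.0743 and Arhgap28 at 0.0799, against a median of 0.419 over all tested genes. For Tek, whose own counts were lower, the closest were Veph1 at 0.221, Gm2225 at 0.25 and Col28a1 at 0.252, against a median of 0.479. These genes were picked for their likeness over the same libraries, so a test of them would not be independent of that choice.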

How the data were processed

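The authors deposited 1 table of raw counts of reads per gene, with no normalization, for 12 libraries of poly(A) RNA. Reads of 150 bases were mapped with HISAT2 v2.1.0 to GRCm39 by the study's methods; the sample records list mm10, and the table's coordinates are those of GRCm39. The counting tool and its strand setting are not given in the sources used here. Testing was by edgeR 4.0.16 under R 4.3.3 (filterByExpr with a minimum count of 10, TMM factors, glmQLFit and glmQLFTest on all 12 libraries with group as the only term), with Benjamini-Hochberg adjustment over all 16465 genes tested in each of 3 comparisons. Thresholds of 0.05 on the adjusted p and 0.58 on the log2 fold change were taken from the study's methods. CPM and RPKM were computed from the counts with TMM factors (0.966 to 1.02) and the table's gene lengths.

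Totals ran from 29246154 to 52201922 counts; common dispersion had a square root of 0.153, beside which counting error is small in genes with many reads. Groups follow the sample titles, with 4 biological replicates each by a figure caption of the study, so p-values measure the spread between cultures of 1 line. Replicates differed by more than counting noise (chi-square per degree of freedom 7.49 to 19.7 in all pairs). The procedure was tested on simulated data, where it found nearly all changes in genes of at least 5 CPM but missed most of the smaller changes in genes below that level. The requirement on the share found was set for the former genes only after a first requirement over all levels was missed, so a gene under 5 CPM that did not pass may still have changed. Alternatives were edgeR RLE factors, library size alone, no filter, a mean of at least 10 counts, only the groups compared, a replicate block, DESeq2 1.42.0, limma-voom (limma 3.58.1), the adjusted p alone, and leaving out each library.

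Genes named were all 9 members, genes overlapping them, every called gene and the highest of each group of a list of 48 further genes, other genes of those groups that passed the test or help to read it, and the 3 genes most like each called member. The members and lists were chosen with earlier results of these data known.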

Additional observations from a re-analysis of the deposited data

Results flagged for a closer look

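Tek in col1-ACLP replicate 2 was the only value set apart from its group, among 24 groups of 4 libraries examined over 8 genes. It stood at 7.35 CPM against 9.29 to 9.57 CPM in the other 3 libraries, and its gap took up 0.886 of the range of the group (Dixon's test). Chance alone sets apart about 1 in 20 such groups. The value still lay above all 4 col1-ACLP+SB libraries, which ran from 3.95 to 6.01 CPM.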

How the results depend on the processing

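Over the 8 tested genes and 3 comparisons, 471 alternative values were computed, of which 446 kept their direction and side of the threshold, 10 lost the adjusted p of 0.05, 10 gained it and 5 changed sign. The fall of Angpt1 and the rises of Vegfa and Angptl2 on ACLP passed in all 20 alternatives. The number of genes called for col1-ACLP against col1 was 1, it was 1 to 2 when a library was left out (2 without col1 replicate 1, which adds Tek), and it was 4 by the adjusted p alone. For col1-ACLP+SB against col1 it was 0, 1 with library size alone, 0 to 1 when a library was left out (1, Angpt1, without col1 replicate 1, col1 replicate 2 or col1-ACLP+SB replicate 3) and 2 by the adjusted p alone. For col1-ACLP+SB against col1-ACLP it was 1, 0 to 1 when a library was left out (0 without col1-ACLP replicate 4) and 1 by the adjusted p alone. The sign of Vegfc for col1-ACLP+SB against col1, -0.016, became 0.021 with a replicate block, and it ran from -0.47 to 0.501 when a library was left out. Between the ACLP groups, small values that did not pass the test also changed sign when a library was left out, over -0.125 to 0.234 for Sema3d, -0.041 to 0.066 for Sema3b, -0.086 to 0.127 for Angptl1, -0.005 to 0.119 for Kitl, -0.093 to 0.046 for Nrp1 (0.007 with library size alone), -0.875 to 0.073 for Ccbe1, -0.016 to 0.057 for Epas1 and -0.142 to 0.507 for Angptl7. The cause was not tested. Same-numbered replicates did not deviate together (correlations of -0.0372 to 0.036), which is no sign of pairing; with a replicate block Tek for col1-ACLP against col1 was 0.48 (edgeR adjusted p = 0.0459) and Ccbe1 and Angptl1 were lost (adjusted p = 0.0593 and 0.056). Over all genes, calls between the ACLP groups numbered 21, but 46 without a filter, 46 with DESeq2, and 10 and 11 without col1-ACLP replicate 4 and col1-ACLP+SB replicate 4; by the adjusted p alone the counts were 2953, 1504 and 243 in place of 819, 376 and 21. Angpt2, Vegfc and Tie1 rest on few reads, and the shares of depth and of replicate spread in the wide intervals of Angpt2 and Vegfc were not tested.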
